A study of Homo sapiens with 9 samples.

Results

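Mucins and trefoil factors are the proteins that coat the intestinal epithelium, and their mRNA was followed here in uCaco-2, undifferentiated cells of the human Caco-2 line, which was derived from a colon adenocarcinoma. The members were taken by symbol from the table of counts: the membrane-bound mucins MUC1, MUC3A, MUC12, MUC13 and MUC17, the gel-forming mucins MUC2 and MUC5AC, and the trefoil factors TFF1, TFF2 and TFF3, which are 10 of the 60591 symbols listed. The study asked how chemical activators of hypoxia-inducible factor (HIF) signaling change gene expression in intestinal cells. For 24 h the cells received 300 μM CoCl2 (cobalt(II) chloride), 5 μM of an oxyquinoline derivative (OD) or fresh medium as the control, with DMSO in all 3 conditions. The labels state 0.5% DMSO, but the stated OD dose and its 10 mM stock would bring less, so whether the vehicle was matched exactly is uncertain. Each condition had 3 biological replicates, all from this 1 cell line, and poly(A)-selected mRNA was sequenced as single-end reads in stranded libraries. Both treatments mimic low oxygen chemically, and oxygen itself was not varied.

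Gel-forming mucins are secreted by goblet and surface mucous cells and polymerize into the mucus layer, whereas membrane-bound mucins stand on the apical surface and form the glycocalyx. Both kinds carry long repeats rich in serine and threonine, to which GALNT enzymes add the first sugar in the Golgi before other transferases extend and cap the chain. Trefoil factors are small secreted peptides that are stored with mucins, and they promote restitution, the migration of epithelial cells over a wound. In the gut, TFF1 is typically found with MUC5AC in gastric surface cells, TFF2 in gastric gland mucous cells, and TFF3 with MUC2 in intestinal goblet cells. MUC3 and TFF3 have been described as HIF-1 targets in intestinal epithelial lines.

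The control libraries held 15998136 to 18298190 counts, the CoCl2 libraries 16286502 to 24209427 and the OD libraries 16387054 to 19623776. Levels are given as CPM, counts corrected for library size with TMM factors, which were 0.770 to 0.795 with CoCl2 and 1.11 to 1.15 in the other libraries. The treatments were checked on 7 HIF target genes: NDRG1 gave log2 fold changes of 3.69 with CoCl2 and 3.22 with OD, and BNIP3 3.77 and 3.98. The 6 that could be tested had positive log2 fold changes under both treatments. EGLN3 was the lowest of them with OD, at 0.35, and CA9 was too scarce to test. The 7 epithelial markers, mostly KRT8 and KRT18, summed to 9995 to 10459 CPM in control cells and 11745 to 12607 CPM with CoCl2. With OD their sum was 9456 to 9978 CPM. Against control, VIL1 was 5.45-fold and KRT20 2.71-fold lower with CoCl2. EPCAM, CDH1, KRT8, KRT18 and CDX2 were instead higher with CoCl2, at log2 fold changes of 0.36, 0.28, 0.35, 0.26 and 0.18. The 5 enterocyte markers summed to 10.8 to 11.7 CPM in control cells, 6.84 to 8.34 CPM with CoCl2 and 15.8 to 17.5 CPM with OD. ALPI made up most of this sum, at means of 7.35, 4.97 and 9.70 CPM. With CoCl2 against control, ALPI and ANPEP gave log2 fold changes of -0.55 and -1.36. APOA4 and SI gave -0.39 and -0.05 there (edgeR adjusted p = 0.241 and 0.880), and FABP2 was too scarce to test. The 5 goblet cell markers (CLCA1, FCGBP, ZG16, SPINK4 and ITLN1) summed to 1.10 to 3.46 CPM, so mRNA of these 5 was scarce. AGR2, a gene of the goblet cell program outside these 5, averaged 336 CPM with OD and 423 CPM with CoCl2. In bulk mRNA, fewer cells of a type and less mRNA per cell cannot be told apart. The summed goblet level was 2.13 to 2.89 CPM in control cells, 1.10 to 1.78 CPM with CoCl2 and 2.84 to 3.46 CPM with OD. ZG16 made up most of this sum in control cells and with OD, but not with CoCl2. FCGBP had 6 counts over the control libraries and 27 over the CoCl2 ones, where ZG16 had 23. ITLN1 had 5 counts over the control libraries and 8 over the CoCl2 ones. The part of the enterocyte and goblet markers in the mucin and trefoil results was not tested. The 5 fibroblast markers summed to 80.4 to 113 CPM, mostly from PDGFRA (1038 to 1928 counts in each library) with COL1A1 and COL3A1, while COL1A2 and DCN were at 0 to 2 counts. The 5 leukocyte markers summed to 35.5 to 58.7 CPM, mostly from LYZ with CD14, while PTPRC and CD3E were at 0 to 6 counts.

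The mucin and trefoil genes did not move as 1 group. A gene was called when its log2 fold change exceeded 1 in size and its adjusted p was below 0.05 in the quasi-likelihood test of edgeR, with Benjamini-Hochberg adjustment over 15944 genes. Of the 10 members, 8 passed the expression filter, and MUC2 and MUC12 did not. With CoCl2, 5 of the 8 were called against control (43.2% of all tested genes were). MUC13 and TFF1 rose (19.9% of all tested genes were called higher), and MUC1, MUC3A and MUC5AC fell (23.4% were called lower). With OD, 4 of the 8 were called against control (13.3% of all tested genes), and MUC1, MUC13, MUC17 and TFF1 all rose (9.09% of all tested genes were called higher and 4.16% lower). MUC13 and TFF1 were thus called higher under both treatments, which share their control libraries, and MUC1 was called in opposite directions. With CoCl2 against OD, 3 of the 8 were called (41.3% of all tested genes), and MUC1, MUC3A and MUC17 were lower with CoCl2 (17.5% of all tested genes were called higher and 23.8% lower). The median log2 fold change of the 8 was -0.03 with CoCl2, 1.25 with OD and -0.71 between them, beside medians over all tested genes of -0.05, -0.01 and -0.05. MUC1, which had at most 2 counts with CoCl2, lies below the median in both CoCl2 comparisons whatever its exact fold. At an adjusted p under 0.05 alone, 5, 7 and 7 members passed, beside 83.2%, 65.6% and 83.5% of all tested genes. Scaling by library size alone moved the median of all genes to -0.55 with CoCl2 against control and to -0.60 against OD, and 23.9% and 18.3% of the called genes were then higher, beside 46.0% and 42.4% with TMM. Under that scaling MUC13 and TFF1 were still called higher with CoCl2 against control, at 2.43 and 1.46.

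**Figure D1:**
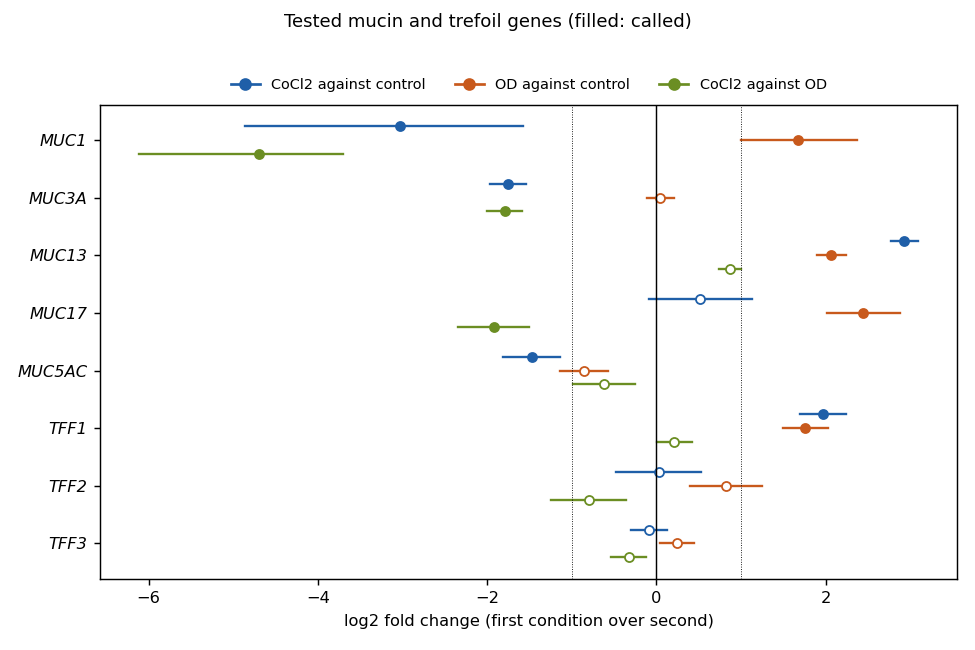
Log2 fold changes of the 8 tested mucin and trefoil genes, with 1 row per gene and 1 colour per comparison. Points are edgeR estimates over 9 libraries (3 per condition), lines are 95% intervals, filled points are called and dotted lines mark the log2 fold change threshold of 1. MUC13 and TFF1 lie above 1 for both treatments against control, whereas MUC1 lies at -3.03 with CoCl2 and at 1.67 with OD.

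MUC13, a membrane-bound mucin with EGF-like domains that is abundant on the colonic surface, rose the most of the members in CPM. Its mRNA was at 7.75, 7.70 and 8.64 CPM in the control libraries (144 to 157 counts), at 63.2, 65.8 and 55.3 CPM with CoCl2 (850 to 1055 counts) and at 35.5, 35.4 and 29.6 CPM with OD (555 to 798 counts). The 3 conditions were fully separated, with CoCl2 above OD and OD above control. MUC13 was 7.63-fold higher with CoCl2 (log2 fold change 2.93 ± 0.08 SE, edgeR adjusted p = 1.32e-38) and 4.19-fold higher with OD (2.07 ± 0.09, adjusted p = 3.54e-29). CoCl2 exceeded OD 1.82-fold (0.86 ± 0.06, adjusted p = 1.72e-18), below the threshold of a call. This log2 fold change ranged from 0.32 to 0.94 over 17 alternative edgeR and DESeq2 settings. MUC13 is on chromosome 3 (GRCh38, 124905442 to 124953819, minus strand).

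MUC17, a large mucin of the enterocyte brush border, separated the treatments. It was at 0.861, 0.784 and 0.561 CPM in control cells (10 to 16 counts), at 0.933, 1.24 and 1.05 CPM with CoCl2 (15 to 20 counts) and at 4.04, 4.26 and 3.78 CPM with OD (71 to 96 counts). All OD libraries lay above all others, and the CoCl2 libraries lay just above the control ones. MUC17 was 5.42-fold higher with OD than in control cells (2.44 ± 0.22 SE, edgeR adjusted p = 9.73e-16) and 3.79-fold lower with CoCl2 than with OD (-1.92 ± 0.21, adjusted p = 8.51e-13). CoCl2 against control gave a log2 fold change of 0.52 with a 95% interval of -0.08 to 1.13 (edgeR adjusted p = 0.104), and at 10 to 20 counts per library a difference was not detectable.

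MUC3A, a membrane-bound mucin of enterocytes that lies in 1 cluster with MUC12 and MUC17 on chromosome 7, fell with CoCl2. Its levels were 16.8, 15.1 and 16.8 CPM in control cells (300 to 313 counts), 5.10, 4.80 and 4.61 CPM with CoCl2 (62 to 88 counts) and 16.2, 17.3 and 16.8 CPM with OD (315 to 389 counts). The CoCl2 libraries lay below all others, while OD and control overlapped. MUC3A was 3.36-fold lower with CoCl2 than in control cells (-1.75 ± 0.11 SE, edgeR adjusted p = 1.52e-23) and 3.47-fold lower than with OD (-1.79 ± 0.10, adjusted p = 1.96e-24). OD against control gave 0.04 with a 95% interval of -0.11 to 0.20 (edgeR adjusted p = 0.638). Of the exonic bases of MUC3A, 6.48% lie opposite a long noncoding RNA gene, and without the strand setting of the counting these reads cannot be assigned with certainty.

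MUC1, which is cleaved at the cell surface and binds β-catenin and receptor tyrosine kinases of the EGFR family through its cytoplasmic tail, was scarce and moved in opposite directions. Its counts were 6, 7 and 9 in control cells, 0, 0 and 2 with CoCl2 and 25, 28 and 26 with OD. The 3 conditions did not overlap, with CoCl2 lowest and OD highest. From the summed counts, MUC1 was 9.31-fold higher in control cells than with CoCl2 (95% exact interval 2.29 to 81.6, 22 against 2 counts) and 30.0-fold higher with OD than with CoCl2 (8.03 to 252, 79 against 2 counts). OD exceeded control 3.19-fold (log2 fold change 1.67 ± 0.34 SE, edgeR adjusted p = 1.72e-05), a rise that was not past a test against a log2 fold change of 1 (glmTreat of edgeR). The fitted values against CoCl2 were -3.03 ± 0.82 for control (edgeR adjusted p = 3.19e-04) and -4.70 ± 0.60 for OD (adjusted p = 5.34e-11). Both CoCl2 counts came from CoCl2 replicate 3: without it the fitted log2 fold changes were -5.88 and -7.55, and MUC1 was at least 3.74-fold higher in control cells and at least 12.1-fold higher with OD than a limit of 3 counts over both remaining CoCl2 libraries. Intervals on counts cover counting error only.

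MUC12, another membrane-bound mucin of the chromosome 7 cluster, was near the detection limit. It had 3, 5 and 2 counts in control cells, 4, 4 and 2 with CoCl2 and 3, 6 and 6 with OD. The conditions overlapped, and no difference was detectable at this depth. Its summed level was 0.176 CPM in control cells (95% exact interval 0.0844 to 0.324), 0.208 CPM with CoCl2 (0.0998 to 0.383) and 0.237 CPM with OD (0.133 to 0.391). The ratio was 1.18 for CoCl2 over control (0.442 to 3.16) and 1.35 for OD over control (0.566 to 3.35).

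**Figure D2:**
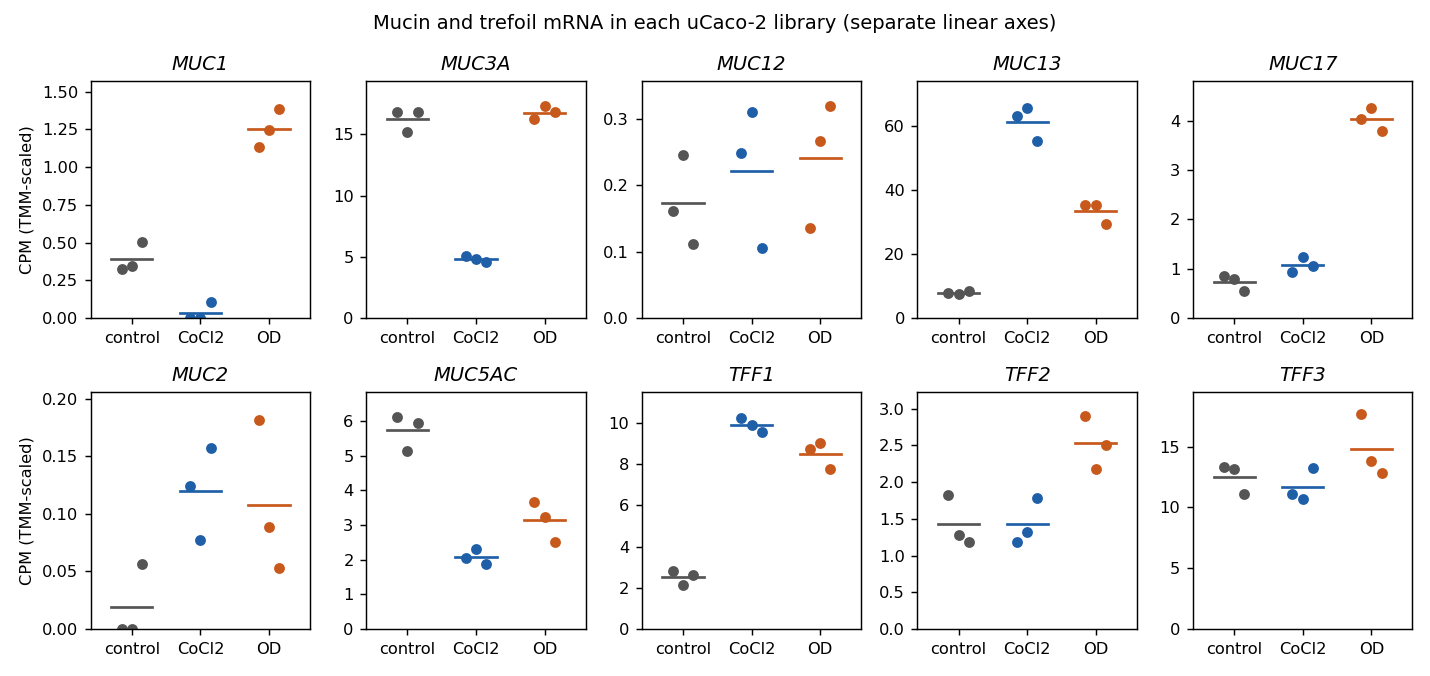
Level of each member in each library, in TMM-scaled CPM on a separate linear axis per gene. Points are the 3 libraries of a condition and horizontal lines their mean. MUC13 and TFF1 are higher in every treated library than in every control library, MUC17 is high only in the OD libraries, and MUC3A is low only in the CoCl2 libraries.

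The upstream sequences of 4 membrane-bound mucins are shown because their mRNA responded in 4 different ways: MUC13 rose under both treatments, MUC17 with OD, MUC3A fell with CoCl2, and MUC1 fell with CoCl2 and rose with OD. They are the 250 bases before the RefSeq gene start on GRCh38.p14, written 5′ to 3′ along the gene, at chr3:124934752-124935001 (minus strand), chr7:101019831-101020080 (plus), chr7:100949284-100949533 (plus) and chr1:155192916-155193165 (minus), and capitals mark matches to the motifs searched. RefSeq windows were found for 6 of the 10 members, and MUC5AC, TFF1, TFF2 and TFF3 had no entry. MUC3A had no match in these 250 bases.
MUC13: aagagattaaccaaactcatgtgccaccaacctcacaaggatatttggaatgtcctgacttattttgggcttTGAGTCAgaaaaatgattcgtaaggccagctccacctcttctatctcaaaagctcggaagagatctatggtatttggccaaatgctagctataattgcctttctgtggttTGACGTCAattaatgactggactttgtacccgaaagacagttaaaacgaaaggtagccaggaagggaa
MUC17: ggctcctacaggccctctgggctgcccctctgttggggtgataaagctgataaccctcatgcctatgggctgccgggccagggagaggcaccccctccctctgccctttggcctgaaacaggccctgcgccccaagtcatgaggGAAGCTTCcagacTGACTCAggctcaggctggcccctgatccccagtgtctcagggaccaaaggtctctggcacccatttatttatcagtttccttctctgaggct
MUC3A: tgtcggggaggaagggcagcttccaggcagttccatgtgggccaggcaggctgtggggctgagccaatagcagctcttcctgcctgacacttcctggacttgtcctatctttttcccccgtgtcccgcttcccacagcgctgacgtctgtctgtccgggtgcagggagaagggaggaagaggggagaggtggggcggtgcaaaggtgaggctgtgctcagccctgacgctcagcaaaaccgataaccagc
MUC1: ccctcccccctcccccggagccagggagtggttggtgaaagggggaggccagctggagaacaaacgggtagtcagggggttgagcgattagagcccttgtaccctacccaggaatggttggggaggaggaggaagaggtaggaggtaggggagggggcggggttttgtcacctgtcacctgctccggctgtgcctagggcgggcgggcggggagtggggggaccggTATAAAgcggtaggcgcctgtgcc

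The following motifs were searched on both strands in windows of 300 bases, from 250 before to 50 after the start: the hypoxia response cores ACGTG and GCGTG, the cAMP response element TGACGTCA, the AP-1 element TGANTCA, the antioxidant response core TGACNNNGC, the heat shock unit GAANNTTC and the TATA box TATAAA. The MUC13 window held TGACGTCA at 68 to 61 bases before the start, a motif in 1.98% of 27305 such windows, and an AP-1 match at 178 to 172 bases before it (7.76% of windows). The MUC17 window held an AP-1 match at 93 to 87 and a heat shock unit at 106 to 99 bases before the start (6.87% of windows). The MUC1 window held a TATA box at 24 to 19 bases before the start (3264 of the 27305 windows). Neither MUC13 nor MUC1 had a hypoxia response core in this window, which 48.4% of windows had. The cores in MUC3A and MUC17 lay after the start, at bases 6 to 34 of MUC3A and 35 to 50 of MUC17 as shown here, with the matches in capitals.
MUC3A: cattACGTGCACGCcccagggcCACGTcc
MUC17: tgagACGTGctcagag

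MUC3A, which fell with CoCl2, thus had ACGTG on both strands (at 10 to 14 and 28 to 32) and GCGTG on the minus strand (15 to 19), while MUC17 had ACGTG once (39 to 43). Such matches are letters in a window, and binding was not measured. ACGTG alone was in 21.6% of windows and GCGTG in 36.3%. In the other windows, MUC12 had GCGTG at 118 to 114 bases and a TATA box on the minus strand at 31 to 26 bases before its start, and MUC2 an AP-1 match at 151 to 145 bases before its own. The RefSeq start of MUC13 lies inside the longer gene span of GENCODE 44.

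Of the gel-forming mucins, MUC5AC, which builds the gastric surface mucus and is scarce in normal colon, was the one with enough counts to test. It was at 6.13, 5.15 and 5.95 CPM in control cells (105 to 114 counts), at 2.05, 2.32 and 1.89 CPM with CoCl2 (30 to 36 counts) and at 3.68, 3.24 and 2.50 CPM with OD (47 to 81 counts). The 3 conditions were separated, with control highest and CoCl2 lowest. MUC5AC was 2.77-fold lower with CoCl2 (log2 fold change -1.47 ± 0.17 SE, edgeR adjusted p = 5.39e-12). With OD it was 1.81-fold lower (-0.85 ± 0.14, edgeR adjusted p = 4.58e-07), past the adjusted p but not the fold threshold, and it was the only tested member with a negative log2 fold change with OD. CoCl2 against OD gave -0.62 ± 0.19 (edgeR adjusted p = 0.00198), and DESeq2 on the 6 libraries gave an adjusted p of 0.0562 there.

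MUC2, the main gel-forming mucin of the colon, was almost absent from these cells. It had 0, 0 and 1 counts in control cells, 2, 1 and 3 with CoCl2 and 4, 2 and 1 with OD. The OD library with 1 count and the CoCl2 library with 1 count met the highest control library, so the counts were not separated. The summed ratio to control was 7.09 for CoCl2 (95% exact interval 0.86 to 326, 6 against 1 counts) and 6.28 for OD (0.807 to 283, 7 against 1), and both intervals include no difference.

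TFF1, first known as an estrogen-induced peptide and as the trefoil factor of the gastric surface, rose under both treatments. Its levels were 2.80, 2.16 and 2.64 CPM in control cells (44 to 52 counts), 10.3, 9.91 and 9.54 CPM with CoCl2 (128 to 182 counts) and 8.72, 9.01 and 7.77 CPM with OD (146 to 203 counts). Every treated library lay above every control library. TFF1 was 3.92-fold higher with CoCl2 (1.97 ± 0.14 SE, edgeR adjusted p = 6.03e-21) and 3.38-fold higher with OD (1.76 ± 0.13, adjusted p = 2.00e-18). The CoCl2 libraries also lay above the OD ones, by a log2 fold change of 0.21 with a 95% interval of 0.0046 to 0.42 (edgeR adjusted p = 0.0540). Scaled by library size alone, TFF1 was instead lower with CoCl2 than with OD (-0.33, edgeR adjusted p = 0.00291).

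TFF2, a trefoil factor with a pair of trefoil domains that is typical of gastric glands, was low and rose with OD by less than the fold threshold. It was at 1.83, 1.27 and 1.18 CPM in control cells (21 to 34 counts), at 1.18, 1.32 and 1.78 CPM with CoCl2 (17 to 34 counts) and at 2.91, 2.18 and 2.50 CPM with OD (47 to 64 counts). Control and CoCl2 overlapped, and all OD libraries lay above both. TFF2 was 1.77-fold higher with OD than in control cells (0.82 ± 0.21 SE, edgeR adjusted p = 5.43e-04), which is under the fold threshold. Without control replicate 1 it was called, at 1.05 (edgeR adjusted p = 1.51e-04). CoCl2 against control gave 0.03 with a 95% interval of -0.48 to 0.53. CoCl2 against OD gave -0.80 ± 0.22 (edgeR adjusted p = 8.48e-04), and -1.02 and a call without CoCl2 replicate 3.

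TFF3, the trefoil factor of intestinal goblet cells, was the most abundant trefoil mRNA in CPM in each condition and had no call in any comparison. It was at 13.3, 13.2 and 11.1 CPM in control cells (198 to 269 counts), at 11.1, 10.7 and 13.3 CPM with CoCl2 (138 to 253 counts) and at 17.7, 13.8 and 12.8 CPM with OD (241 to 390 counts). The libraries overlapped in all 3 comparisons. CoCl2 against control gave -0.09 with a 95% interval of -0.30 to 0.13 (edgeR adjusted p = 0.450). OD against control gave 0.24 ± 0.10 SE (edgeR adjusted p = 0.0289), which rested on single libraries: it was 0.16 (adjusted p = 0.187) without control replicate 3 and 0.09 (adjusted p = 0.460) without OD replicate 1. CoCl2 against OD gave -0.33 ± 0.10 (edgeR adjusted p = 0.00334). Over 17 alternative edgeR and DESeq2 settings it ranged from -0.87 to -0.18, with adjusted p up to 0.104. Over those settings CoCl2 against control ranged from -0.59 to -0.03, with adjusted p from 5.59e-06 to 0.833.

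For single members, the exact two-sided permutation test of 3 libraries against 3 cannot give a p below 0.1. It gave that smallest value wherever the libraries did not overlap, which held for 6 of the 8 tested members with CoCl2 and for 6 with OD against control, and for 7 with CoCl2 against OD. Non-overlap was common in these data, at 83.4%, 68.0% and 83.8% of all tested genes in these comparisons.

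Members of the same gene cluster differed in the size of their changes. On chromosome 7, MUC3A (100949534 to 100968347), MUC12 (100969565 to 101018939) and MUC17 (101020072 to 101058859) follow each other on the plus strand within 109 kb of GRCh38. With OD, MUC17 rose 5.42-fold while the log2 fold change of MUC3A was 0.04, and with CoCl2 MUC3A fell 3.36-fold while MUC17 gave 0.52. On chromosome 21, TFF3 (42311667 to 42315409), TFF2 (42346357 to 42350997) and TFF1 (42362282 to 42366535) lie on the minus strand within 54.9 kb. In this cluster all 3 genes were higher with OD past the adjusted p, with log2 fold changes of 0.24 for TFF3, 0.82 for TFF2 and 1.76 for TFF1, and TFF1 alone was called. MUC2 (1074875 to 1110511) and MUC5AC (1157953 to 1201138) are within 126 kb on chromosome 11, plus strand, and MUC1 is on chromosome 1 (155185824 to 155192916, minus strand).

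**Figure D3:**
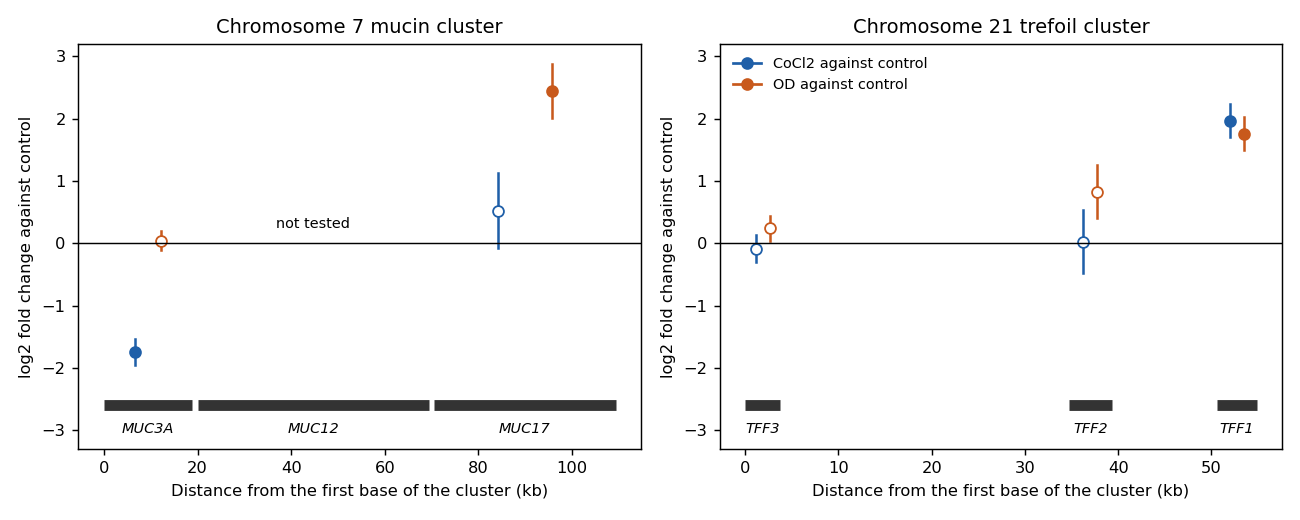
Fold changes against control along the chromosome 7 mucin cluster and the chromosome 21 trefoil cluster. The horizontal axis is the distance in kb from the first base of the cluster, black bars are the genes, points are log2 fold changes with 95% intervals for CoCl2 (blue) and OD (orange), and filled points are called. MUC3A lies at -1.75 with CoCl2 and MUC17 at 2.44 with OD, and TFF1 is the only called gene of its cluster.

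To compare genes of different length, CPM were divided by the exonic length in kb, which ranges from 0.492 kb for TFF1 to 17.4 kb for MUC5AC. In control cells TFF3 led with 13.6 ± 1.34 CPM per kb (SD, n = 3), above TFF1 with 5.14 ± 0.677. MUC13 (2.29 ± 0.151) and TFF2 (2.04 ± 0.503) did not differ beyond their spread, and MUC3A followed with 1.43 ± 0.0854. The remaining mucins were far lower, with MUC5AC at 0.329, MUC1 at 0.163, MUC17 at 0.050, MUC12 at 0.0101 and MUC2 at 0.00148 CPM per kb.

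The order of these levels per kb changed with treatment. With CoCl2, TFF1 (20.1 ± 0.732) and MUC13 (17.6 ± 1.56) stood above TFF3 (12.7 ± 1.5 CPM per kb), and the 3 genes did not overlap. With OD, TFF1 (17.3 ± 1.31) and TFF3 (16.0 ± 2.80) overlapped and MUC13 (9.57 ± 0.972 CPM per kb) came next. MUC1 moved from 0.0146 CPM per kb with CoCl2, where it overlapped MUC12 and MUC2, to 0.522 with OD, above MUC17 (0.274) and MUC5AC (0.180). Among 14136 tested genes with a length, MUC13 moved per kb from percentile 39.8 in control cells to 81.4 with CoCl2 and to 73.0 with OD. The mucins other than MUC13 stood at percentile 31.9 or lower in each condition. Of the level per kb summed over the 10 members, MUC13 made up 8.21% to 10.4% in control cells, 29.9% to 35.4% with CoCl2 and 18.9% to 20.6% with OD, and TFF3 51.0% to 58.3%, 21.8% to 27.3% and 30.5% to 35.8%. Mucin lengths include tandem repeats, where the treatment of reads that fit several places is not given in the sources used here, so levels per kb of the large mucins are approximate.

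**Figure D4:**
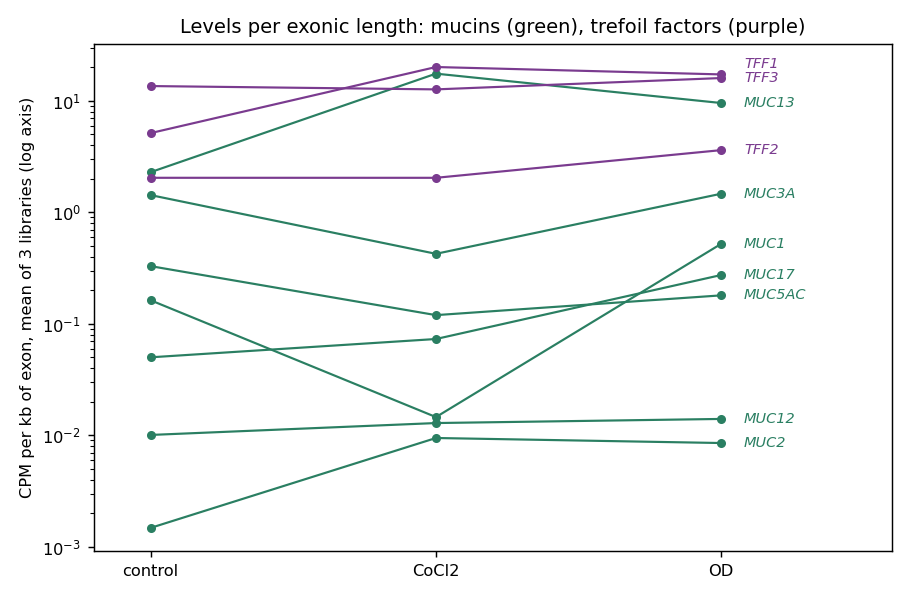
Mean level of the 10 members per kb of exon (3 libraries per condition) on a log axis. Mucins are green and trefoil factors purple. TFF3 leads in control cells with 13.6 CPM per kb and TFF1 with CoCl2 and OD (20.1 and 17.3), and MUC13 rises from 2.29 to 17.6 and 9.57.

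Genes that act with mucins and trefoil factors were followed in lists, of which 115 symbols were in the table and 68 were tested. A share of a list near that of all tested genes is no result about the list. With CoCl2, 9 were called higher and 23 lower against control, or 47.1% of the 68 beside 43.2% of all tested genes. With OD, 13 were called higher and 1 lower, or 20.6% beside 13.3%. CoCl2 against OD gave 2 higher and 26 lower, or 41.2% beside 41.3%.

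Of the 11 tested GALNT enzymes, which start mucin-type O-glycans, 1 was called higher and 6 lower with CoCl2, beside 19.9% and 23.4% of all tested genes. With CoCl2 the median of their log2 fold changes was -1.24, and with OD it was -0.31. GALNT6, the most abundant of those named by rule, fell from 207 ± 5.23 CPM (SD, n = 3) to 43.7 ± 2.78 CPM, or 4.72-fold, and GALNT11 fell 3.29-fold, GALNT12 5.28-fold and GALNT16 4.23-fold. With OD, the same enzymes gave log2 fold changes of -0.44, -0.34, 0.73 and 0.82, none of them called. GALNT3, singled out after its values were seen as the 1 enzyme called higher, rose from 26.4 ± 1.25 to 55.6 ± 2.91 CPM with CoCl2 and to 55.9 ± 2.77 CPM with OD.

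Among the 17 tested genes listed for O-glycan extension and capping, 1 was called higher and 8 lower with CoCl2, beside 19.9% and 23.4% of all tested genes. With OD, 3 were called higher and 0 lower, or 17.6% beside 13.3% of all tested genes, and the medians of the log2 fold changes were -0.94 with CoCl2 and -0.10 with OD. GCNT3, the mucin-type enzyme that branches core structures, was at 5.81 ± 0.117 CPM in control cells, 107 ± 4.95 CPM with CoCl2 and 17.8 ± 1.12 CPM with OD. It was 18.4-fold higher with CoCl2 (4.20 ± 0.07 SE, edgeR adjusted p = 4.77e-52) and 3.06-fold higher with OD (1.61 ± 0.09, adjusted p = 3.90e-24). B3GNT3, which extends core 1, fell 3.30-fold with CoCl2 and rose 2.72-fold with OD, and B3GNT7, which extends sulfated chains, rose 3.01-fold with OD and gave -0.94 with CoCl2. GAL3ST1, a sulfotransferase, fell 5.31-fold with CoCl2 and gave 0.72 with OD. Whether it acts on mucin glycans in these cells was not tested. B3GNT2, the most abundant, gave 0.75 and 0.26, under the fold threshold.

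**Figure D5:**
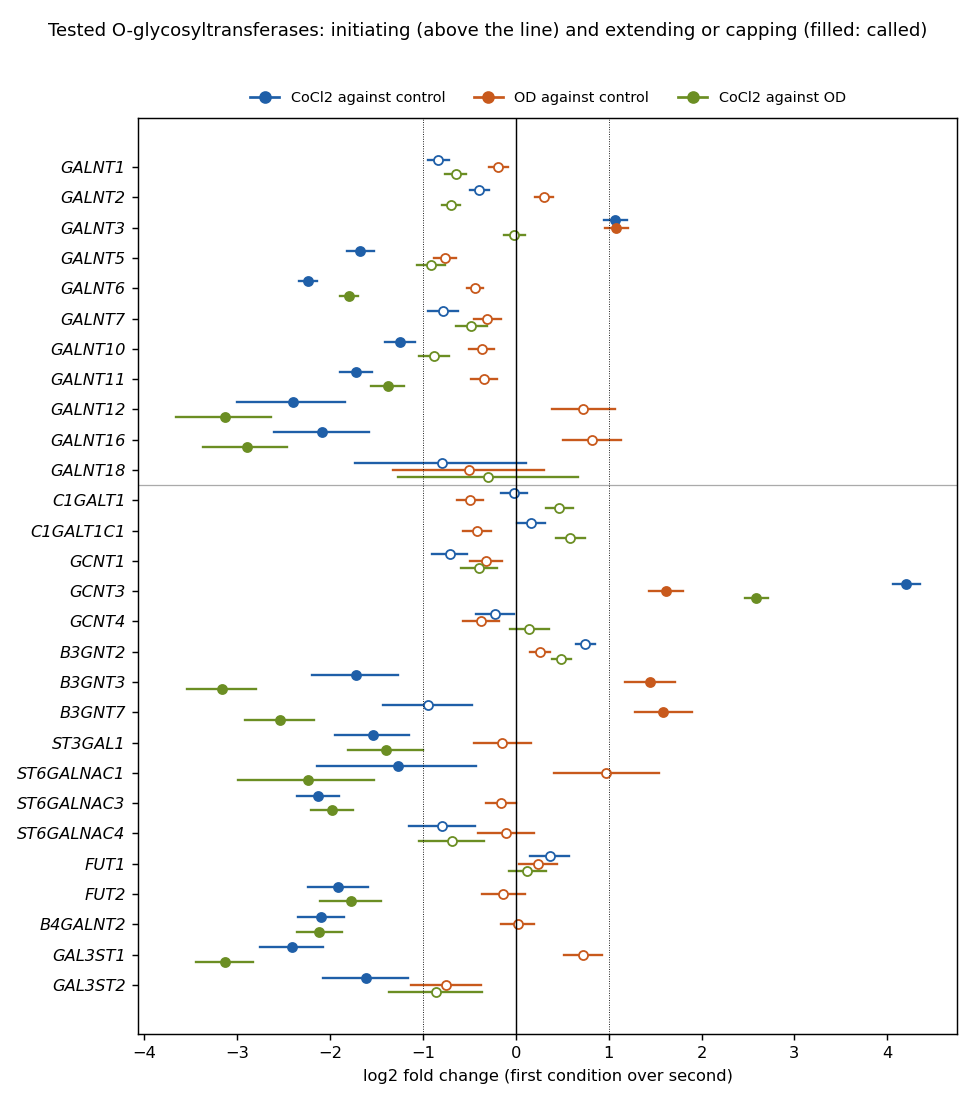
Log2 fold changes of the 28 tested genes listed for O-glycan synthesis, 11 GALNT genes above the grey line and 17 listed for extension and capping below it. Points are edgeR estimates, lines 95% intervals, colours the comparisons and filled points calls. With CoCl2, GALNT3 and GCNT3 are the called rises against 14 falls.

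The goblet cell program had 8 tested genes of 20, with 0 called higher and 2 lower with CoCl2 and 2 higher and 0 lower with OD. Over all tested genes, 23.4% were called lower with CoCl2 and 9.09% higher with OD. The 8 genes stood at 2 of 8 in each case, with median log2 fold changes of -0.82 and 0.52. ZG16, a lectin of goblet cell granules, fell 4.04-fold with CoCl2, from 1.94 ± 0.278 to 0.466 ± 0.0987 CPM. GFI1, a transcription factor of secretory precursors, rose 4.27-fold with OD, from 1.59 ± 0.0894 to 6.76 ± 0.519 CPM, and gave 0.35 with CoCl2. SPDEF, a transcription factor of goblet cell maturation that was singled out after its values were seen, had 4 to 6 counts in control cells, 1 to 2 with CoCl2 and 22 to 31 with OD, and rose 4.86-fold with OD (edgeR adjusted p = 7.14e-08). AGR2, a disulfide isomerase of the endoplasmic reticulum needed to make MUC2, was abundant, at 419 ± 13.1 CPM in control cells, 423 ± 13.6 CPM with CoCl2 and 336 ± 3.28 CPM with OD. CREB3L1, a regulator of secretory capacity, was 2.12-fold lower with CoCl2 than with OD.

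Among partners of membrane-bound mucins, 13 were tested, with 2 called higher and 3 lower with CoCl2 and 2 higher and 0 lower with OD. These 38.5% and 15.4% were near the 43.2% and 13.3% of all tested genes, and the median log2 fold changes were 0.11 and 0.40. The receptors EGFR and ERBB2, partners of the MUC1 tail, fell 2.86-fold and 3.28-fold with CoCl2 and gave log2 fold changes of 0.65 and 0.37 with OD. CTNNB1 (β-catenin), another partner of that tail that was added after its values were seen, gave 0.32 with CoCl2 and -0.08 with OD. ADAM17, a protease that sheds MUC1, rose 2.66-fold with CoCl2 (34.6 ± 1.80 to 92.0 ± 5.13 CPM), and MMP14, another MUC1 sheddase, rose 2.36-fold with OD. JUP (γ-catenin), the most abundant of the list, gave 0.86 with CoCl2 and 0.55 with OD. CD164, a mucin-like sialomucin and the 1 tested gene of the other mucins, gave 0.98 and 0.36.

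Of 7 listed trefoil partners and receptors, CXCR4 and ACKR3 were tested, and both were called with CoCl2 and with OD (43.2% and 13.3% of all tested genes). CXCR4, a chemokine receptor reported to bind TFF2, rose 8.06-fold with CoCl2 and 6.14-fold with OD, from 0.884 ± 0.293 CPM to 7.23 ± 0.890 and 5.40 ± 0.826 CPM. ACKR3, the atypical receptor that shares the CXCR4 ligand, fell 2.50-fold with CoCl2 and rose 2.57-fold with OD.

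Transcription factors of mucin and trefoil genes had 10 tested members, with 2 called higher and 2 lower with CoCl2 and 1 of each with OD. These 40.0% and 20.0% stood beside 43.2% and 13.3% of all tested genes, with median log2 fold changes of 0.10 and 0.22. KLF4, a factor of goblet cell differentiation, rose 6.52-fold with CoCl2 and 4.86-fold with OD, from 3.74 ± 0.213 CPM to 24.5 ± 0.333 and 18.2 ± 1.52 CPM. SP1 rose 2.30-fold with CoCl2, and FOXA1 fell 2.79-fold with OD and gave -0.74 with CoCl2. HNF4A, the most abundant, gave 0.41 and 0.46. Of the 6 chloride and bicarbonate transporters, which hydrate and unfold secreted mucins, 2 were called higher and 1 lower with CoCl2 and 2 higher and 0 lower with OD, or 3 and 2 of the 6 beside 43.2% and 13.3% of all tested genes, with median log2 fold changes of 0.06 and 0.87. CFTR fell 7.20-fold with CoCl2, from 171 ± 6.55 to 23.7 ± 1.65 CPM, and gave -0.76 with OD, and ANO1 was 2.19-fold lower with CoCl2 than with OD.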

How the data were processed

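Counts of mRNA reads per gene were analysed in 9 uCaco-2 libraries, 3 per condition. Per the labels and the methods, the authors trimmed reads with cutadapt 2.10 after FastQC 0.11.9, mapped them on GRCh38.p13 with STAR 2.7.5b and deposited raw counts per GENCODE gene symbol, without normalization. The counting tool, its strand setting and its handling of reads that fit several places are not given in the sources used here. No column of an unmapped sample was present (0 columns).

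Here edgeR 4.0.16 in R 4.3.3 fitted 1 mean per condition over all 9 libraries (TMM factors, its expression filter, robust quasi-likelihood fit) for CoCl2 against control, OD against control and CoCl2 against OD. The members and the partner lists were chosen with earlier results of these data known. All 10 members are named, and from each partner list the most abundant tested gene and up to 4 called genes that changed most and averaged 1 CPM or more, with exceptions stated. The values of 1 partner gene that this rule names are not reported here. Positions, exonic lengths and overlaps came from GENCODE 44, and lengths were found for 14136 tested genes (88.7%). Upstream sequences came from RefSeq. Exact intervals on summed counts have a 95% level and cover counting error only, since molecular identifiers were not used.

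Simulated counts with 200 genes changed by a log2 fold of 2 in CoCl2 against control were used as a check, where edgeR on 9 libraries recovered 186 among 15438 genes. In the data 43.2% of tested genes were called with CoCl2, so this check does not cover the TMM scaling or false calls at such a share. Replicates of a condition differed beyond sampling noise, at 1.82 or more in chi-square per degree of freedom, and all were kept. Alternatives were RLE factors, library size alone, no filter, a minimum of 10 counts per library, a block for the replicate number, the adjusted p alone, glmTreat, DESeq2 1.42.0 on 9 or 6 libraries, edgeR on 6 libraries and each library left out in turn.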

Additional observations from a re-analysis of the deposited data

How the results depend on the processing

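The calls of members against control did not move by over 1.5 times under the other scalings, filters, tools and single libraries left out: 4 to 5 with CoCl2 and 3 to 5 with OD. MUC1 was not tested in the CoCl2 comparison by edgeR on 6 libraries, nor in any with at least 10 counts in every library. With OD, 7 members passed the adjusted p alone. For CoCl2 against OD, 5 were called with library size alone (MUC5AC and TFF2 joined) and 7 passed the adjusted p alone. Of the 68 tested partner genes, 60, 56 and 58 passed the adjusted p alone in the 3 comparisons, beside 83.2%, 65.6% and 83.5% of all tested genes. Leaving out single libraries gave 5 to 5, 4 to 5 and 3 to 4 called members and 32 to 36, 13 to 16 and 27 to 30 called partners. TFF2 was the gene that joined, without control replicate 1 and without CoCl2 replicate 3.

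Of 404 values of single members under alternatives, 391 kept their direction and call, 4 became calls and 9 changed sign. Of 1419 values of named partners, 1389 kept both, 8 lost and 10 gained a call and 12 changed sign. With library size alone, TFF1 in CoCl2 against OD became -0.33 and TFF2 in CoCl2 against control -0.48. Against control with CoCl2, the same scaling gave -0.15 for GFI1, -0.49 for AGR2, -0.30 for MMP14 and -0.0924 for HNF4A. Against OD it gave -0.22 for AGR2, -0.0571 for B3GNT2, -0.24 for JUP, -0.15 for CXCR4 and -0.12 for KLF4. That scaling moves the median of all genes with CoCl2 by construction. TFF2 and AGR2 in CoCl2 against control were near 0 and gave -0.0366 and -0.0526 without a count filter and -0.00138 and -0.0149 with at least 10 counts in every library, and TFF2 gave -0.00263 by DESeq2 on 6 libraries. Without single libraries TFF2 ranged from -0.20 to 0.24 and AGR2 from -0.0190 to 0.0417 in this comparison, and MUC3A in OD against control from -0.00968 to 0.0850. The cause of these sign changes was not tested.

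No pairing by replicate number was visible in the counts. Deviations of same-numbered libraries had correlations of -0.018 to 0.067 over 9 pairs, and those of differently numbered ones -0.069 to 0.062. These values cannot tell whether replicates were handled together. With the replicate block, 5, 4 and 3 members and 32, 14 and 28 partners were called, the same counts as without it. At the depth of these libraries MUC1, MUC2 and MUC12, with 0 to 28 counts, are limited by counting error.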

Other observations

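Some relatives and partners of the mucins were too scarce to test and were chosen after their values were seen, so their counts are given without a test. MUC4, a membrane-bound mucin that binds ERBB2, had 0, 4 and 4 counts in control cells, 14, 6 and 20 with CoCl2 and 7, 4 and 1 with OD. Its summed ratio was 5.91 for CoCl2 over control (95% exact interval 2.73 to 14.6, 40 against 8 counts) and 1.35 for OD over control (0.506 to 3.80). FCGBP, a goblet cell protein that binds TFF3 and MUC2, had 1, 4 and 1 counts in control cells, 6, 14 and 7 with CoCl2 and 2, 2 and 2 with OD, and its ratio for CoCl2 over control was 5.32 (2.15 to 15.8). ERN2, an endoplasmic reticulum stress sensor of mucous cells, had 0 counts in each control library, 6, 5 and 6 with CoCl2 and 1, 2 and 0 with OD, so it was at least 6.70-fold higher with CoCl2 than a limit of 3 counts over the control libraries. The intervals cover counting error and not the spread between replicates.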
